A study of Drosophila melanogaster with 3 samples.

Results

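The small nuclear RNA (snRNA) genes of Drosophila melanogaster were examined for binding of Prospero, a homeodomain transcription factor of the developing nervous system. Members were all genes whose biotype is snRNA in the Ensembl annotation of the BDGP6 assembly (release 115) on the main chromosome arms. There are 32 of them among 18164 annotated genes, transposable elements left out. A member counted as having a summit when the highest point of a peak, as marked by the authors' peak caller, lay inside the gene or within 500 bp of either end. The chromatin came from whole embryos of 2 to 18 h, both sexes together, of a stable transgenic line in which Prospero carries green fluorescent protein (GFP) at its C terminus. It was precipitated with an antibody against GFP, per the sample descriptions, whereas the antibody field names pros. The 3 biological replicates form a single group with no other genotype, stage or antibody, so no comparison between conditions is possible and none was tested. Whole embryos mix all cell types, and these lists do not show in which cells a gene was bound.

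snRNAs are short, stable RNAs of the nucleus. U1, U2, U4, U5 and U6 build the major spliceosome, which removes most introns, while U11, U12, U4atac and U6atac take their places in the minor spliceosome. U7 acts in the processing of the 3′ ends of histone mRNAs, and 7SK holds the elongation factor P-TEFb in an inactive state. Most snRNA genes are transcribed by RNA polymerase II and the U6, U6atac and 7SK genes by RNA polymerase III. Both kinds of fly promoter carry a proximal sequence element upstream of the start, which is read by the snRNA activating protein complex, and the polymerase III promoters also have a TATA box. The U1 and U2 genes exist in several near-identical copies spread over the genome.

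The 80 bases before the start show the promoter element that most of these genes share, and for each kind of snRNA they are given for the copy with the strongest peak and the copy with the weakest or no peak. They are read 5′ to 3′ on the strand of the gene from RefSeq's copy of the assembly (dm6 coordinates). Capitals mark the letters AATTCCCAA, a core of the proximal sequence element, or its shorter form TTCCCAA where the longer one is absent. Copies with no capitals have neither. U6:96Aa and U6:96Ab have the same strongest peak, and U6:96Ab, which is not printed, also has neither.
U1:21D (chr2L:901655-901734, minus strand): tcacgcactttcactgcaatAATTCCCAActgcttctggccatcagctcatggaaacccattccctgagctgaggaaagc
U1:95Cc (chr3R:23826254-23826333, plus strand): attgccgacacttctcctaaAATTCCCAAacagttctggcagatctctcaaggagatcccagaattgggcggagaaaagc
U2:34ABb (chr2L:13215759-13215838, plus strand): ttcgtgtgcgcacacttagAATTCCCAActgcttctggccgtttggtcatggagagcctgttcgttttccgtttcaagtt
U2:38ABb (chr2L:19812566-19812645, plus strand): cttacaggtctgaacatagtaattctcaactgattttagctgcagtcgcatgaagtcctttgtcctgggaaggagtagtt
U4:39B (chr2L:21215179-21215258, minus strand): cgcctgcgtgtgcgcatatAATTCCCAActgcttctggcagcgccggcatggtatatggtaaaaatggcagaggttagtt
U4:25F (chr2L:5565539-5565618, plus strand): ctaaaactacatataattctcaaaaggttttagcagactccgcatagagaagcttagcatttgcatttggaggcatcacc
U5:63BC (chr3L:3090721-3090800, plus strand): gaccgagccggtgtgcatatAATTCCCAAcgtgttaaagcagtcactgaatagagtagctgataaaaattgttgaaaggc
U5:38ABa (chr2L:19812075-19812154, minus strand): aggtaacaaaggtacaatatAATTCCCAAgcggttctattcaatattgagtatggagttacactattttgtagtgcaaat
U6:96Aa (chr3R:24556008-24556087, plus strand): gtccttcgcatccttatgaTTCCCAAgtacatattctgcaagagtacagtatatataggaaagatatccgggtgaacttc
U6:96Ac (chr3R:24557135-24557214, plus strand): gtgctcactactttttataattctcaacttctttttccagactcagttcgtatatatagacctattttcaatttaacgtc
U11 (chr3L:3893331-3893410, minus strand): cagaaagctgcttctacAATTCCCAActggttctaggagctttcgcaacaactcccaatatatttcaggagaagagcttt
U6atac (chr2L:8389644-8389723, plus strand): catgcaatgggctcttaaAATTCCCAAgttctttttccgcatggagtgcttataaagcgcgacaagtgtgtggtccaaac
7SKa (chr3R:7474997-7475076, minus strand): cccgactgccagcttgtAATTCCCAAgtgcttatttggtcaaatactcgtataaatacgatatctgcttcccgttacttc
7SKb (chr3R:23432789-23432868, plus strand): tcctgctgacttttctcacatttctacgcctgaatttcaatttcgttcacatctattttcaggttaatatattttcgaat
U7 (chr3L:3593743-3593822, plus strand): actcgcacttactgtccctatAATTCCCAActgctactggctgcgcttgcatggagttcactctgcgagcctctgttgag

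Of the 250 bases before to 50 after the start, 23 of 32 snRNA genes held AATTCCCAA on either strand (71.9%), against 0.710% of the promoters of all 18164 genes. For TTCCCAA the shares were 26 of 32 (81.2%) and 5.30%. On the strand of the gene, the first letter of TTCCCAA lay 55 to 61 bp before the start in all 26 of these genes. Members with a summit in the optimal set held AATTCCCAA in 14 of 16 cases, and members without in 9 of 16. Of the 14, U5:34A, holds it on the opposite strand alone, where it is the element of the divergent neighbour U2:34ABc. On the strand of the gene the counts were 22 of 32 members and 13 of the 16 with a summit. A variant with a single base changed, AATTCTCAA, was searched after the sequences had been seen. It was present in 5 of 32 snRNA promoters, those of U2:38ABb, U4:25F, U6:96Ab, U6:96Ac and LU, and in 0.484% of all promoters. Of these 5 genes, U6:96Ab had a summit in the optimal set and the other 4 did not. The 7SKb gene had none of these letters. The difference between members with and without a summit was not tested.

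Prospero peaks lay at 16 of the 32 snRNA genes, counted in the authors' optimal set. This set holds the 6215 peaks that passed their limit on the irreproducible discovery rate (IDR), which scores whether a peak keeps its place in the ranking from replicate to replicate. That is 50% of the members (exact binomial 95% interval 31.9% to 68.1%, counting error only). Among all annotated genes the share was 16.4%. Of the other small RNA genes, 14.8% of the 290 transfer RNA (tRNA) genes and 8.55% of the 269 small nucleolar RNA (snoRNA) genes had such a summit. Gene lengths were not matched between these classes. Among 13945 protein-coding genes, 9.44% had a summit within 500 bp of the 5′ end. The bases that lie within 500 bp of an optimal-set summit make up 3.99% of the main arms. Neighbouring members can share a peak: with members less than 1000 bp apart counted once, 14 of 26 loci had a summit, and 19 separate summits served the 16 genes.

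In the longer list of 30000 peaks called on the pooled reads, 25 of the 32 snRNA genes had a summit (78.1%, exact binomial 95% interval 60% to 90.7%). The shares in that list were 51.4% for tRNA genes, 19.3% for snoRNA genes, 35.2% for starts of protein-coding genes and 42.7% for all annotated genes. The replicates gave like counts. In the 30000 peaks of each replicate, 27, 25 and 27 members had a summit in replicates 1, 2 and 3. The shares of all annotated genes in these lists were 42.4%, 42.1% and 46.1%. Among the 6215 strongest peaks of each replicate, 16, 15 and 16 members had a summit, and 14 did in all 3. For all annotated genes the shares there were 15.5%, 15.6% and 17.7%. Over all annotated genes, 12.1% had a summit among the strongest peaks of all 3 replicates. The optimal set is made of the 6215 strongest peaks of the pooled list, so it is not independent of the replicates. A peak in it need not be among the 6215 strongest of every replicate. Of the 16 members in the set, 14 had a summit among those of all 3. These need not be the same summit in each list. At U5:38ABb the optimal-set summit was at 19816311, and the replicate 2 summit that counted was at 19816062 (rank 6101). The replicate 2 summit nearest the optimal-set one, at 19816273, ranked 9157.

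**Figure D1:**
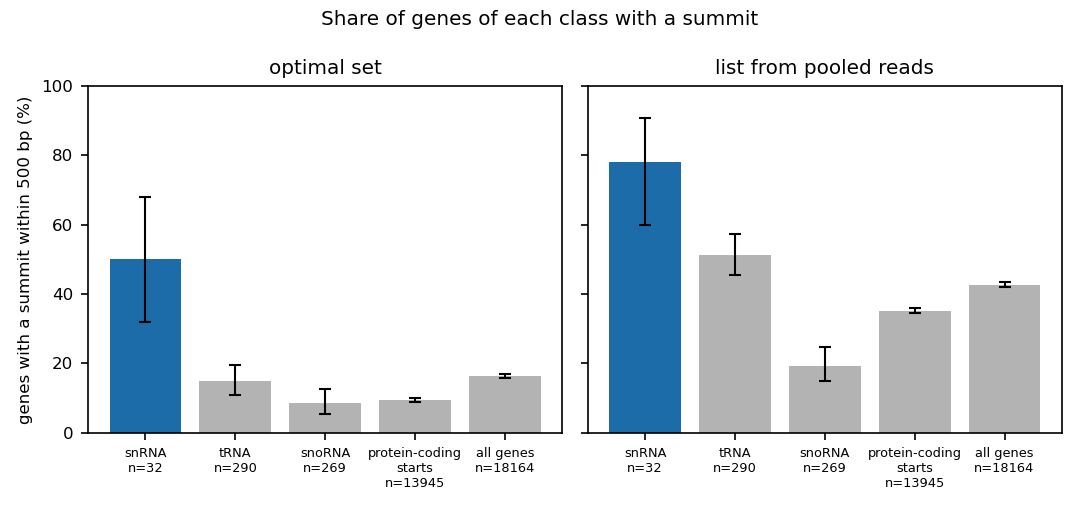
Percentage of genes of each class with a peak summit within 500 bp, in the optimal set (left) and in the list from pooled reads (right); bars are shares, error bars are exact binomial 95% intervals, and for protein-coding genes the distance is taken from the 5′ end. The snRNA genes stand at 50% and 78.1%, and the interval of no other class drawn reaches theirs.

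The 16 snRNA genes with a summit in the optimal set differed widely in peak strength. Their best peaks ranked from 120 to 5704 of 6215, with a median of 1031, and 13 of the 16 were in the stronger 50% of the set. Ranks are given in the order of replicates 1, 2 and 3, each out of 30000 with 1 the strongest, and a rank holds for the strongest peak with a summit inside the window. The signal behind a rank is the value the authors deposited per peak, whose scale is unstated.

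The strongest peak at any snRNA gene was at U5:63BC (3L 3090801 to 3090923, plus strand), 1 of 7 genes for the U5 snRNA, which holds the exons during splicing. It ranked 120 in the optimal set and 114, 195 and 104 in the replicates (mean 138 ± 49.9, SD, n = 3). U5:34A (2L 13244848 to 13244974, plus strand) ranked 314, 501 and 363. U5:38ABb (2L 19816414 to 19816540, plus strand) was near the limit of the set, at 5704, with replicate ranks of 3329, 6101 and 6201. In replicate 2 the summit nearest its optimal-set summit was a weaker one, of rank 9157. The other 4 U5 genes were far weaker or had no peak. U5:23D had a pooled peak of rank 23295 and was found at 17033 and 27426 in replicates 1 and 3 and not in replicate 2. U5:14B and U5:35D had peaks in replicate lists alone, the first at 18900 and 24202 in replicates 1 and 2, and the second at 18790 and 18911 in replicates 1 and 3. U5:38ABa had none in any list. The 7 U5 genes have 7 distinct sequences that are 78.3% to 96.1% identical pairwise. U5:63BC with the strongest peak and U5:38ABa with none are 88.4% identical.

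U2 pairs with the branch site of the intron, and its genes split by location. The 3 copies at 34AB had strong peaks. U2:34ABb (2L 13215839 to 13216030, plus strand) ranked 176, 173 and 140 (mean 163 ± 20, SD, n = 3). This SD was the smallest of any member ranked in all 3 replicates. Relative to the mean rank, U4:38AB (1488 ± 104, SD, n = 3) varied less. U2:34ABc (2L 13244370 to 13244561, minus strand) had the same peak as U5:34A, whose start lies 287 bp away on the other strand, and so the same ranks of 314, 501 and 363. U2:34ABa (2L 13211925 to 13212116, minus strand) ranked 893, 1037 and 703. The other 3 copies were not in the optimal set. U2:14B (X 16254672 to 16254863) ranked 14710, 18715 and 7921. U2:38ABa ranked 6101 in replicate 2 through the summit it shares there with U5:38ABb, had rank 24722 in replicate 3 and no summit in replicate 1. U2:38ABb had a single weak peak, of rank 27601 in replicate 1. The 6 U2 genes are 98.4% to 100% identical to each other in sequence.

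U1 recognises the 5′ splice site, and 4 of its 5 genes had a summit in the optimal set. U1:21D (2L 901491 to 901654, minus strand) ranked 993, 2292 and 1235 in the replicates. U1:95Ca (3R 23859467 to 23859630, minus strand) ranked 2508, 4248 and 2982. U1:82Eb (3R 4947933 to 4948096, minus strand) ranked 3382, 7074 and 3168. All 3 were weakest in replicate 2. U1:95Cb (3R 23827870 to 23828033, plus strand) ranked 5151, 8315 and 5286, again with replicate 2 lowest. U1:95Cc, which starts 1536 bp upstream of U1:95Cb on the same strand, stayed outside with 12985, 17194 and 20344. The calls at U1:82Eb and U1:95Cb were the weakest of this group: both were lost, leaving 2 U1 genes, when peaks were required in replicates 2 and 3 (without replicate 1) or in replicates 1 and 2 (without replicate 3), and in the stronger 50% of the set.

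U4 chaperones U6 into the spliceosome. U4:39B (2L 21215036 to 21215178, minus strand) ranked 825, 1378 and 779, and U4:38AB (2L 19810734 to 19810875, plus strand) ranked 1382, 1590 and 1492. Both were high in all 3 replicates. U4:25F (2L 5565619 to 5565766), whose sequence is 73.8% identical to either of them where they are 94.4% identical to each other, had no summit in any of the 5 lists. The 3 U6 genes, whose RNA forms the catalytic centre, lie within 1234 bp on 3R and have 1 sequence. In the optimal set a single summit between the first and the second, at 24556503, was in the windows of both U6:96Aa (24556088 to 24556194) and U6:96Ab (24556692 to 24556798). The strongest summits of the replicates there were at 24556482, 24556514 and 24556417 and ranked 909, 751 and 1551, and replicate 3 had another between these genes at 24556622, at rank 7037. The third copy, U6:96Ac (24557215 to 24557321), had a summit in replicate 3 alone, at rank 23715.

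Outside the major spliceosome the levels were split between genes with strong peaks and genes with weak ones. Of the 4 minor spliceosome genes, 0 had a summit in the optimal set (exact binomial 95% upper limit 60.2%). U11 ranked 8741, 16938 and 13585 in the replicates, U4atac 11800, 21366 and 18392, and U12 17799, 29036 and 16864. All 3 had a pooled peak, with pooled ranks of 11477, 17466 and 15899. U6atac had no summit in any list. 7SKa (3R 7474553 to 7474996, minus strand) was among the strongest members at 259, 356 and 107, while 7SKb (3R 23432869 to 23433272, plus strand) ranked 20682, 24098 and 20569. The 2 genes are 49.7% identical over their aligned length, and the value that unrelated sequences would give was not computed. U7 (3L 3593823 to 3593893, plus strand) was steady at 2177, 2178 and 2474. LU (2L 3046765 to 3046880), a member of the snRNA class outside these families, ranked 13988, 12739 and 16731.

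**Figure D2:**
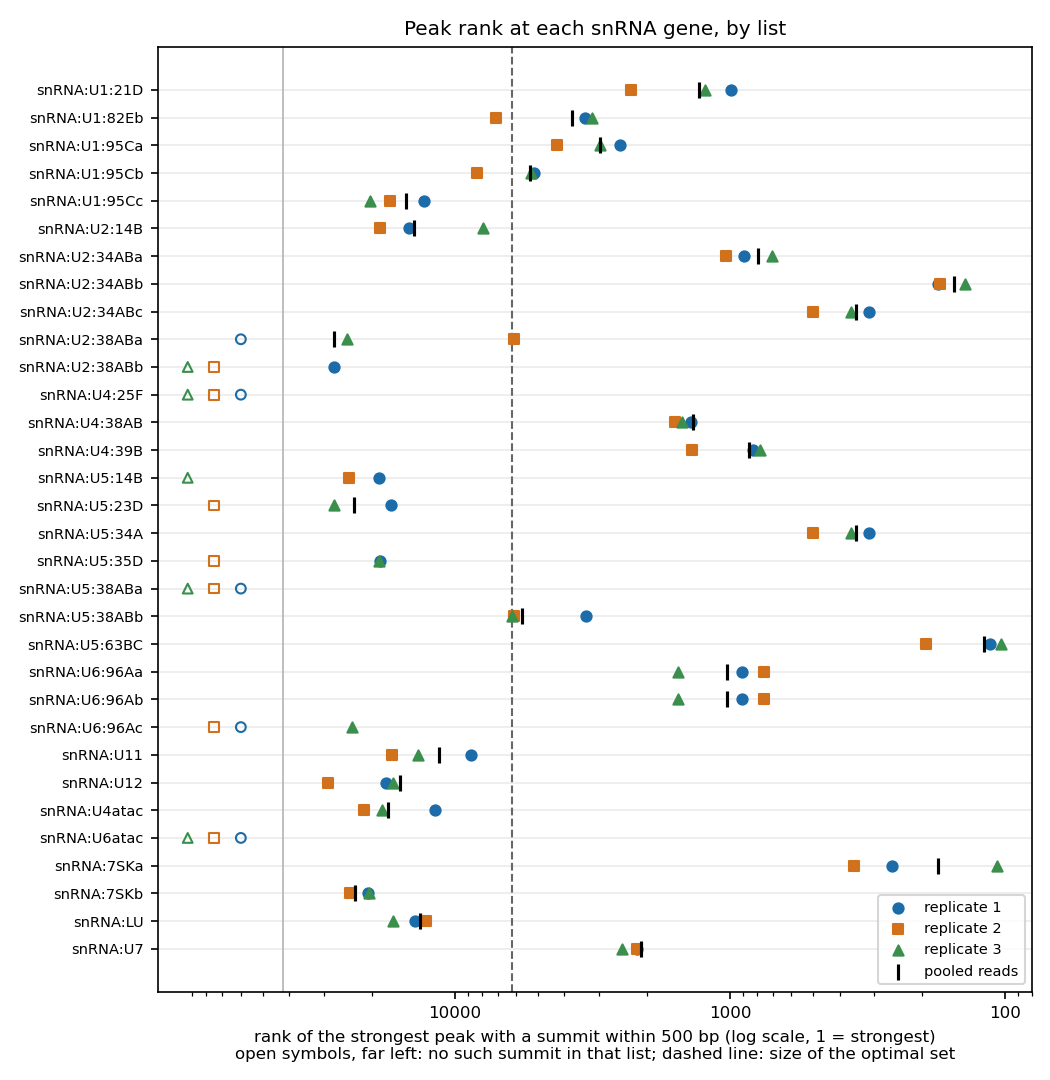
Rank of the strongest peak with a summit within 500 bp of each of the 32 snRNA genes, in the 3 replicate lists and the list from pooled reads (log axis, strongest to the right; open symbols at the far left mark lists with no such summit, and the dashed line marks rank 6215). Members with a summit in the optimal set lie mostly right of the line in each replicate, and U1:82Eb and U1:95Cb cross it in replicate 2.

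By type, a summit in the optimal set was found at 4 of 5 U1, 3 of 6 U2, 2 of 3 U4, 3 of 7 U5, 2 of 3 U6, 0 of 4 minor and 2 of 4 other genes (7SKa and U7, but not 7SKb and LU). With so few genes in each, the intervals overlap, for example 28.4% to 99.5% for U1 and 9.90% to 81.6% for U5, and no difference between types was tested. Of the 6 genes of the polymerase III class (U6, U6atac and 7SK), 3 had a summit, and of the remaining 26, 13 did. Both shares are 50%, and 2 of the 3 polymerase III genes share 1 summit. The 9 members with a summit in the pooled list but not in the optimal set had best pooled ranks of 11477 to 27616. The nearest member inside the limit was U5:38ABb at 5704, so no member's best pooled peak lay between 5704 and 11477.

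Few snRNA genes lie near the start of a protein-coding gene. Only 3 of the 32 have their start within 500 bp of such a start (9.38%), against 11% of tRNA and 10.8% of snoRNA genes. U2:34ABa starts 302 bp from CG15482, U2:34ABb 489 bp from kek4, which encodes a leucine-rich repeat membrane protein, and U6atac 393 bp from CG42819. The first 2 had a summit in the optimal set and U6atac had none. Of the 29 members away from protein-coding starts, 14 had one (48.3%, exact binomial 95% interval 29.4% to 67.5%). For tRNA genes the shares were 18.8% near and 14.3% away from protein-coding starts, and for snoRNA genes 20.7% and 7.08%. Of the 19 summits at members, 2 lay within 500 bp of a protein-coding start and 16 lay more than 1000 bp from any. Both of the former were at U2:34ABa, at 105 and 310 bp from the start of CG15482, and by position alone they cannot be assigned to either gene. At U2:34ABb the summit was 725 bp from the start of kek4. The median distance from a summit at a member to a protein-coding start was 3292 bp, and the median over all optimal-set summits was 1899 bp. The summits at U1:95Ca (30432 bp) and U7 (18317 bp) were the farthest.

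Some members sit inside a larger gene. There were 16 members in introns of protein-coding genes, and none of them overlapped an annotated exon of its host. Of these 16, 6 had a summit in the optimal set, and of the 16 outside protein-coding genes, 10 did. The hosts include Eip63E, a cyclin-dependent kinase gene that holds U7 on the same strand, and sick, which holds 5 members of the 38AB cluster. Of those 5, U4:38AB and U5:38ABb had a summit in the optimal set and U2:38ABa, U2:38ABb and U5:38ABa had none. In the pooled list 14 of the 16 intronic members and 11 of the other 16 had a summit. By arm, 8 of 16 members on 2L, 2 of 4 on 3L, 6 of 10 on 3R and 0 of 2 on X had a summit in the optimal set, and no member lies on 4 or 2R.

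Only summits in a gene or within 500 bp of it were counted, so the distances below are limited by that rule. The nearest optimal-set summit was 7 to 415 bp from the start of the 16 genes, with a median of 107 bp, and 7 of the 16 had it within 100 bp. The median depended on the summit chosen: with the strongest summit in the window, or 1 summit per merged region, it was 176 bp. It was 96 bp with a 250 bp window and 131 bp with a 1000 bp window. By the nearest summit the medians were 210 bp for 43 tRNA genes, 177 bp for 23 snoRNA genes and 154 bp for 1317 protein-coding starts that had a summit. By the strongest summit, a measure added after the values were seen, they were 214 bp, 177 bp and 167 bp, so snRNA genes had the shortest median by the first measure and not by the second. These differences were not tested. Of the 21 pairs of a member and a summit in its window, 7 were upstream of the start, 7 in the gene and 7 downstream of its end. The placement was not at the start alone. In the optimal set U1:95Ca had its summit 10 bp into the gene, U7 52 bp and U5:63BC 89 bp, whereas U1:95Cb had it 337 bp from the start, beyond the gene's end. The replicates placed some of these elsewhere. Their strongest summits lay 126, 51 and 127 bp after the start of U1:95Ca, and 51, 87 and 90 bp after that of U7. At U5:63BC they lay 105, 89 and 88 bp after the start, and at U1:95Cb 367, 351 and 338 bp.

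In the optimal set, a pair of summits flanked the start at several members. In 7SKa they lay 190 bp into the gene and 10 bp before the start, in U1:21D 196 bp after and 7 bp before it, in U2:34ABa 197 bp after and 8 bp before it, and in U4:39B 133 bp after and 74 bp before it. The summit farther into or beyond the gene was the stronger in each of these 4, at ranks 175, 1302, 792 and 853 of the optimal set against 3089, 2866, 922 and 2719. The spacings were 200, 203, 205 and 207 bp. Such a spacing is a feature of the list as a whole: of 1036 pairs of neighbouring optimal-set summits 500 bp or less apart, none was closer than 199 bp, the median was 203 bp and 87.7% were 190 to 220 bp apart. The fifth member with a pair of summits, U5:63BC, had them 259 bp apart, at ranks 120 and 6034. Which members had a flanking pair varied between lists. U1:21D and U2:34ABa had one in every replicate. U4:39B had a single summit in replicate 3, and the weaker summit at 7SKa ranked 19882 in replicate 2. U1:95Ca and U1:82Eb, with 1 optimal-set summit each, had summits on either side of the start in replicates 1 and 3.

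**Figure D3:**
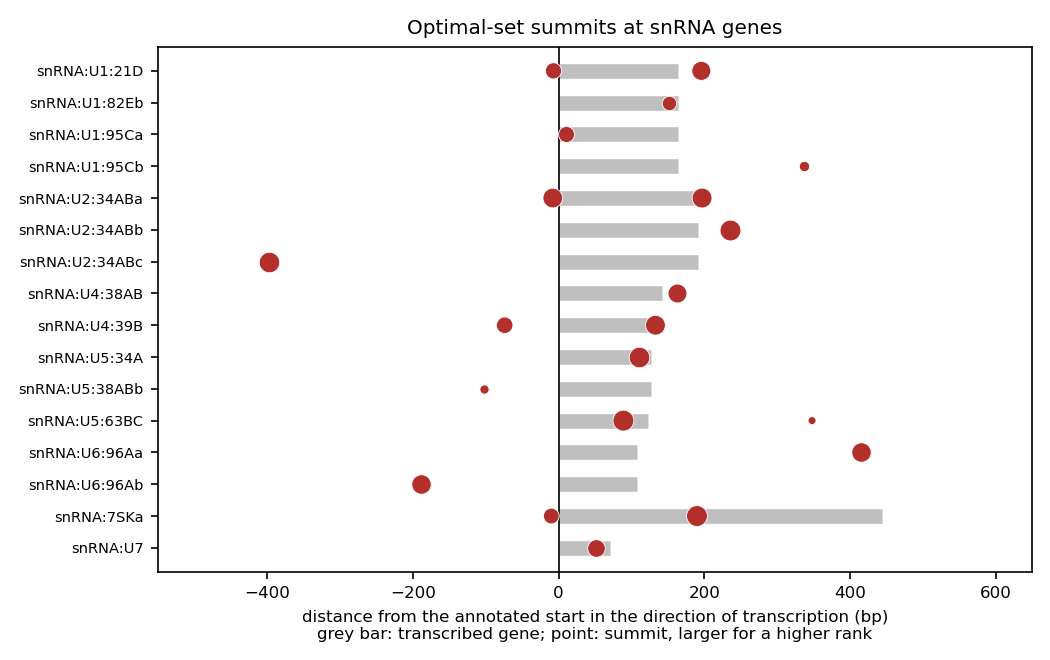
Position of each optimal-set summit relative to the annotated start of the 16 snRNA genes that have one (bp in the direction of transcription; grey bars are the transcribed genes, and larger points are summits of higher rank). U1:21D, U2:34ABa, U4:39B and 7SKa have a summit on either side of the start, and U6:96Aa and U6:96Ab show the same summit at 415 and -189 bp.

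Many of the copies share long stretches of sequence, and how reads that match several places were treated in calling these peaks is not given in the sources used here. The share of 36-mers of the gene that occur more than once in the assembly ranged from 0% at 9 members to 100% at 9, with a median of 63.0% over the 32. With 50-mers the median was 56.3%. For 36-mers it was 77.2% over the 16 members with a summit in the optimal set. It was 0% over the 9 with a pooled summit but no optimal-set one. Over the 4 with a summit in replicate lists alone it was 80.5%, and over the 3 with none it was 0%. Of the 23 members with any repeated 36-mer, 14 had a summit in the optimal set, and of the 9 with none (U4:25F, the 4 minor genes, 7SKa, 7SKb, LU and U7), 2 did, 7SKa and U7. In the pooled list the counts were 18 of the 23 and 7 of the 9, so the shares were close there. The part of repeated sequence in the calls was not tested. In the gene with 500 bp on either side the median share was 12.2% for members in the optimal set, and the highest was 59.8%, at U2:34ABc. Some copies had the same repeated share in the gene and unequal shares with 500 bp on either side. The U6:96Aa, U6:96Ab and U6:96Ac genes are each 100% repeated and identical. With 500 bp on either side their shares were 7.46%, 12.3% and 12.2%. Only the first 2 had a peak in more than 1 replicate, and their strongest summit was the same. The U1:21D, U1:95Ca and U1:95Cb genes have the same sequence, and their mean replicate ranks were 1507, 3246 and 6251. Their shares with 500 bp on either side were 12.2%, 12.6% and 13.3%.

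**Figure D4:**
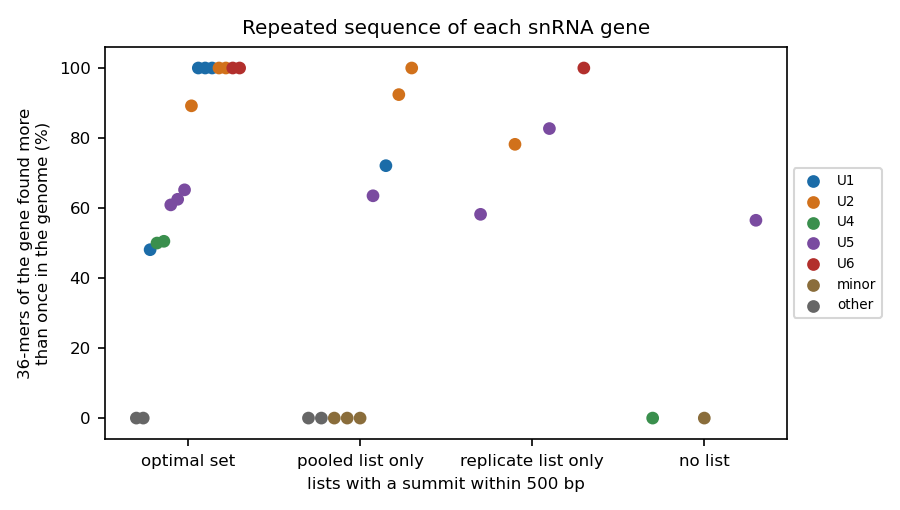
Share of 36-mers of each snRNA gene that occur more than once in the assembly (y axis, %), with genes placed by the lists in which they had a summit and coloured by type. Genes with a summit in the optimal set run from 0% to 100%, and the genes at 0% are U4:25F, the minor spliceosome genes, 7SKa, 7SKb, LU and U7.

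The core of the Prospero homeodomain site was not found at these peaks. AAGACG, searched on both strands in the 201 bp centred on the summit, was in 0 of the 19 windows at snRNA genes and in 11.3% of all 6215 windows. A count of 0 of 19 allows a share of up to 17.6% (exact binomial 95% limit), so a difference from all windows was not detectable at this number of summits. It was in 0 of 32 snRNA promoters (250 bp before to 50 bp after the start) and in 7.22% of all promoters. A match or its absence describes these letters only and shows nothing of how the protein came to be there. At the same 19 summits, AATTCCCAA was within the window in 6 cases, against 0.483% of all summits. These summits were chosen for lying at snRNA genes, and 71.9% of snRNA promoters hold these letters. A higher share is thus built into the choice and says nothing of the peaks. GAGAG, a site of GAGA factor, was in 6 of 19 (31.6%) against 40.3% of all. TATAAA was in 5 of 19 (26.3%) against 14.8%. The promoter letters TATCGATA (the DNA replication-related element) and GGTCACACT (a motif of M1BP) were in 0 of 32 snRNA promoters, against 7.51% and 4.79% of all promoters, where 0 of 32 allows up to 10.9%. In the promoter windows GAGAG was in 28.1% of snRNA genes against 29.5% of all, and TATAAA in 46.9% against 43.9%. These shares were not tested against each other.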

How the data were processed

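Prospero ChIP-seq of 3 biological replicates was deposited as narrowPeak lists on dm6. Per the deposited file descriptions, every replicate list rests on that replicate's alignments with a control, another list on the pooled alignments, and the optimal set on all of these with an IDR limit. Aligner, peak caller, read filters and limit: not given in the sources used here. The signal of a peak is the authors' value on an unstated scale, deposited without normalization notes, and was used only to rank peaks within a list. The deposited −log10 q-value entered no result, and the control library was not used here. Depth is unknown, since the lists hold no counts, and lists of equal length carry no information on it. Intervals (Clopper-Pearson, 95%) cover counting error only, and no p-value is given, because the labels give 1 group.

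Genes came from Ensembl release 115 and sequence from RefSeq's copy of the assembly; every peak ended within its arm. Positions are 1-based. A summit (start plus offset) within 500 bp of a gene counted. A gene was near a protein-coding start when its start lay within 500 bp of any transcript start of such a gene. Members less than 1000 bp apart formed 1 locus. Repeated 36-mers were counted on both strands of the whole assembly, with 50-mers as a check. Identity is the share of identical positions in a global alignment. The counting was tested on simulated data. Every member is accounted for by name. The members and lists were chosen with earlier results of these data known. Analyses used Python 3.11.15, numpy 2.4.6, pandas 2.3.3, scipy 1.17.1, Biopython 1.88 and matplotlib 3.10.9.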

Additional observations from a re-analysis of the deposited data

How the results depend on the processing

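Of 70 alternatives to the main results, 63 left the count within 1.5 times its value, or the distance within the spread between replicates. The count of members with an optimal-set summit stayed between 13 and 18 of 32. It was 13 to 16 when a replicate was left out: 13 without replicate 1, 16 without replicate 2 and 13 without replicate 3, each with peaks matched in both others. Where 13 were left, U1:82Eb, U1:95Cb and U5:38ABb were lost. The count in the strongest 10000 pooled peaks was 16 members, against 25 in the whole list. With nearness drawn at 250 bp, no member was near a protein-coding start, the closest being U2:34ABa at 302 bp. The count of 0 near members with a summit was thus fixed beforehand. The median distance from start to summit, 107 bp, moved by more than 7.37 bp (SD over replicates) to 96 bp with a 250 bp window, 131 bp with 1000 bp, 89.0 bp in the stronger 50% of the set, and 176 bp both with 1 summit per merged region and with the strongest summit in the window. In a 250 bp window U2:34ABc and U6:96Aa were lost, and in a 1000 bp window U2:38ABa and U6:96Ac were gained. Among the 27 members with AATTCCCAA or AATTCTCAA on their strand before the start, an alternative added after seeing the data, 14 had a summit. No paired analysis was possible because the samples form a single group. Depth is unknown, so a member without a summit is not shown to be unbound.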
